A study of Mus musculus with 6 samples.

Results

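The genes described here encode 50 splicing regulators of the SR, hnRNP and other RNA-binding families. They were found as the rows of the deposited gene count table whose Ensembl identifier carries the symbol of a listed gene, which gave 50 of 55401 genes. RNA came from the anterior cingulate cortex, a frontal midline area of the brain, of adult Mus musculus. By their Ythdf1 genotype, 3 libraries were labelled wild type (WT) and 3 knockout (KO), with no treatment named. YTHDF1 is a cytoplasmic protein that binds N6-methyladenosine in mRNA. No source used here gives the strain, how the allele was made, or whether a library came from 1 animal or from pooled animals. Nothing in the labels ties the replicates to separate animals, so p-values measure the spread between these libraries, which may be technical.

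Exons are joined by the spliceosome, and which exons enter the mRNA is set largely by proteins that bind the pre-mRNA near them. SR proteins carry RNA recognition motifs and a domain rich in serine and arginine and mostly favour the inclusion of exons whose sequence they bind, while many hnRNP proteins favour skipping. Neurons also use RBFOX, NOVA, PTBP2, CELF, MBNL, KHDRBS and ELAVL proteins, not all of them confined to neurons. Their effect often depends on the side of the exon on which they bind. Many of these genes regulate their own mRNA through forms with an early stop codon or a kept intron, which nonsense-mediated decay or nuclear retention then removes.

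The gene counts summed to 61792250 to 69848835 per library. The 50 genes held between 513 and 47197 counts in a library. Levels are given as CPM, the counts scaled to a common total, relative to a library size scaled by TMM factors. Ythdf1 was at 55.8, 53.2 and 49.0 CPM in WT replicates 1 to 3, against 58.2, 62.1 and 57.2 CPM in KO replicates 1 to 3. Its mRNA was thus not lower in any library labelled KO, with a log2 fold change of 0.17 (SE 0.066, adjusted p = 0.93). No source used here says which part of the gene is deleted, so this mRNA level does not check the labels. Cap1, which the series title ties to YTHDF1, had a log2 fold change of -0.02 (SE 0.047, adjusted p = 0.991). The chi-square of any pair of libraries over genes was 14.6 to 32.5 per degree of freedom, so no library repeated another within sampling noise.

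None of the 50 splicing regulators passed the test between the genotypes, and most were at nearly the same level in all 6 libraries. All 50 had enough counts to be tested. The test was edgeR's quasi-likelihood F-test over 20587 genes with Benjamini-Hochberg adjustment and a threshold of 0.05, and it called 0 genes in all (0.0% of those tested), with 1083 (5.26%) at an unadjusted p under 0.05 and 0 of the 50 among them. limma voom also called 0 genes, although 1156 had an unadjusted p under 0.05. DESeq2 called 34 genes (0.165%), none of them a splicing regulator. The lowest adjusted p of a splicing regulator was 0.93.

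The log2 fold changes, KO minus WT, were above 0 for 31 of the 50 genes and below 0 for 19, against 49.8% above 0 among all tested genes. Their median was 0.014, against -0.001 over all tested genes. With upper-quartile scaling the split was 25 above 0 of 50. Without WT replicate 2 or without KO replicate 2 it was 25 as well, and without KO replicate 1 it was 35. In 44 genes the log2 fold change was smaller than 0.1 in either direction, and in 29 genes its 95% confidence interval lay within 0.2 of 0. The SE was 0.043 to 0.156 in every gene except Hnrnpa3, and under 0.07 in 39 genes. For 5 genes all 3 libraries labelled KO were above all 3 labelled WT, against 5.84% of all tested genes. For 0 genes were they all below, against 5.17%.

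**Figure D1:**
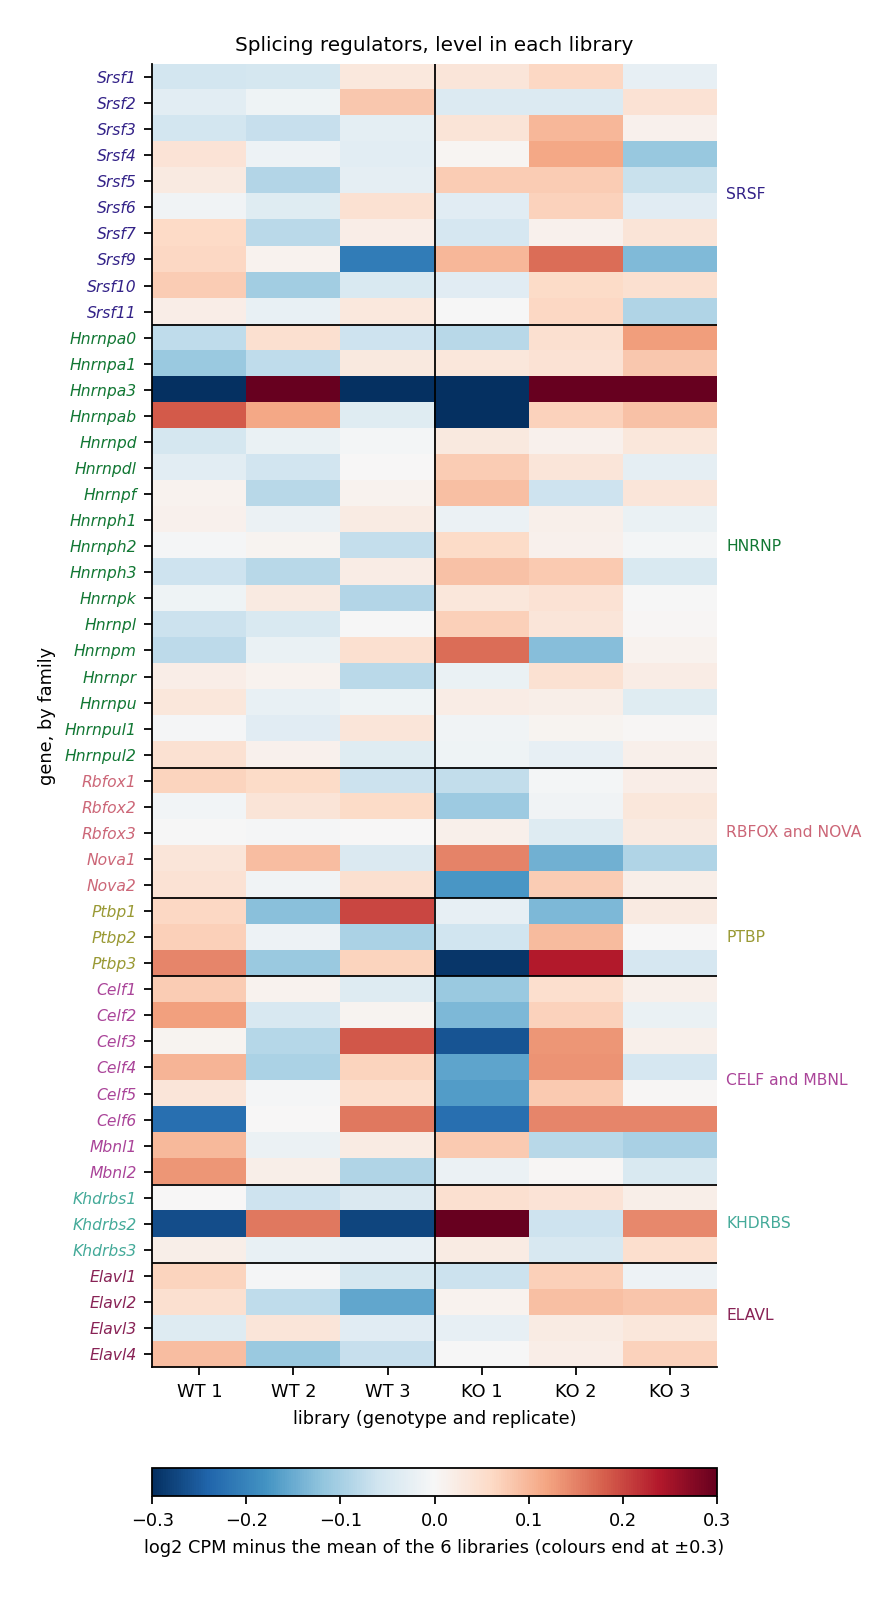
Level of each of the 50 splicing regulators in each of the 6 libraries, as log2 CPM minus the mean of the 6 libraries (colour), with genes in rows by family and the line between WT and KO libraries drawn in black. Colours end at 0.3 in either direction, and Hnrnpa3, whose 6 libraries run from 13.7 to 178.9 CPM, goes far beyond that.

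The gene totals were read beside the transcripts that the authors' deposited table lists as differing between the genotypes. That table holds 537 transcripts, 250 with a higher and 287 with a lower mean in KO, each with its FPKM in every library (fragments per kb of transcript and per unit of library size). It lists 6 transcripts of 5 of the 50 splicing regulators, Srsf11, Hnrnph1, Mbnl1, Rbfox2 and Hnrnpk, with 3 higher and 3 lower. That is 10% of these genes, against 2.32% of all tested genes. Splicing regulators also have more annotated forms, with a median of 8.5 transcripts per gene against 4. Per annotated transcript, 1.21% of 497 were listed against 0.548% of 95361. None of the 5 gene totals passed the test. The table holds transcripts the authors selected for a difference, so their values are given as a description, and the FPKM of the other forms of these genes is not analysed here. FPKM values carry no read count, so the depth behind them is unknown.

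Srsf11 encodes an SR protein with 1 RNA recognition motif that has been tied to the splicing of very small neuronal exons. Its listed form, ENSMUST00000072875 (GRCm38, chr3:158010919-158031766, minus strand, protein coding), was at 8.07, 9.59 and 7.92 FPKM in WT replicates 1 to 3, against 18.6, 19.4 and 18.6 FPKM in KO replicates 1 to 3. All libraries labelled KO were thus above all labelled WT, and the spread within each group was small beside the gap. The group means were 8.53 ± 0.921 and 18.9 ± 0.473 FPKM (SD, n = 3 each), and the authors' deposited table gives a log2 ratio of 1.15 with q = 2.21e-23. The gene total was at 228.4, 221.7 and 230.4 CPM in the WT libraries and at 225.2, 235.1 and 211.7 CPM in the KO libraries, which overlapped (log2 fold change -0.02, SE 0.052, adjusted p = 0.991).

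The listed Srsf11 form differs from the principal form, ENSMUST00000121326, by its start, and its annotated end lies a little earlier too. Transcription begins 4873 bases further downstream, at an inner start, and the coding sequence has 476 codons in place of 511, which is 35 fewer. RefSeq (GRCm38.p6) has a promoter window around each of the 2 starts, on the minus strand. Each holds 250 bases before and 50 after RefSeq's own start, which is not the same base as the start of the form described here. Both are shown because the listed form is defined by which start is used, with each CG dinucleotide in capitals. The upstream window is chr3:158036557-158036856 and the inner window chr3:158031699-158031998.
Srsf11 upstream start: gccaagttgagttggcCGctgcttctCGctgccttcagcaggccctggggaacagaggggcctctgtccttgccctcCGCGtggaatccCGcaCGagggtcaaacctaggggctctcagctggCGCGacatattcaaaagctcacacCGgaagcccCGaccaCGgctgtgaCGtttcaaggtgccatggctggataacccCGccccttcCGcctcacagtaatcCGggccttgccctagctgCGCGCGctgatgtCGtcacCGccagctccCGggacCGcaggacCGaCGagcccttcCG
Srsf11 inner start: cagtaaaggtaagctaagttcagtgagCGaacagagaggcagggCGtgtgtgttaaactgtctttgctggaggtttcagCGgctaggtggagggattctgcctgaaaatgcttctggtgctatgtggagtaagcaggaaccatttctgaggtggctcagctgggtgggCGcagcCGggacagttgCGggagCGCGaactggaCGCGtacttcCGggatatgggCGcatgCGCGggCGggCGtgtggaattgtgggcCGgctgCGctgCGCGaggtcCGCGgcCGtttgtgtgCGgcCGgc
Each window holds 25 CG dinucleotides (the motif CG, which reads the same on both strands). The median over 32851 mouse promoter windows of this length was 7, 94.6% held at least 1, and 81.6% held fewer than 25. Both Srsf11 windows thus lie in the CG-rich part of all promoters.

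Hnrnpk encodes a KH-domain protein that binds C-rich RNA and single-stranded DNA, and 2 of its non-productive forms were listed in opposite directions. The form annotated as a target of nonsense-mediated decay, ENSMUST00000225031 (chr13:58394758-58402115, minus strand), was at 0.0361, 0.126 and 0.0468 FPKM in WT replicates 1 to 3. It was at 0.313, 0.635 and 0.682 FPKM in KO replicates 1 to 3. Each library labelled KO was above each labelled WT (log2 ratio 2.96 and q = 0.0158 in the authors' deposited table). The form with a kept intron, ENSMUST00000177377 (chr13:58395889-58402110), went the other way, with 0.358, 0.788 and 0.641 FPKM in the WT libraries and 0.0458, 0.137 and 0.115 FPKM in the KO libraries (log2 ratio -2.59, q = 0.0161 in the authors' deposited table). Both were scarce, under 1 FPKM in all 6 libraries. The gene total overlapped between the groups, at 290.7, 299.0 and 276.1 CPM in WT and 300.2, 302.3 and 293.0 CPM in KO (log2 fold change 0.05, SE 0.047, adjusted p = 0.975), and on the opposite strand its exons overlap those of Rmi1.

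The 2 forms of Hnrnpk differ from the principal form, ENSMUST00000043269, at neighbouring places. Both are also annotated as much shorter, so the differences described next are not their only ones. The decay form has 9 exons and 708 bases and the retained form 7 exons and 775 bases, against 16 exons and 2676 bases. The decay form leaves out a 44-base exon (chr13:58397753-58397796) that 14 of 34 annotated forms hold. Since 44 is not a multiple of 3, the reading frame shifts, and a stop codon follows after 18 further bases, so that 77 codons are left of 463. The retained form keeps 299 bases of a 500-base intron (chr13:58395688-58396187), because its annotated end, at 58395889, lies within that intron. The sequences show the skipped exon in capitals, then the stop codon reached after the skip in capitals, then the first 40 bases of the kept intron in capitals. The skipped exon and the kept intron each follow 20 bases of the exon before them. The stop codon follows 20 bases of the exon before the skip and 18 bases of the exon joined to it.
Hnrnpk skipped exon: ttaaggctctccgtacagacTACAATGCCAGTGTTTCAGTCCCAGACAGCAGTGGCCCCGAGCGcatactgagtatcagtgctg
Hnrnpk decay form: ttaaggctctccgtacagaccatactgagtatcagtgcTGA
Hnrnpk kept intron: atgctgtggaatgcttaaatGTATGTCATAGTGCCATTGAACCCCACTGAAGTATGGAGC

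Hnrnph1 encodes a protein that binds G-rich runs near exons. Its listed form, ENSMUST00000077817 (chr11:50377769-50386528, plus strand, protein coding), was at 1.70, 0.845 and 1.06 FPKM in WT replicates 1 to 3, against 18.8, 11.2 and 1.42 FPKM in KO replicates 1 to 3. The groups overlapped, since KO replicate 3 lay within the range of the WT libraries while the other two were far above it (log2 ratio 3.12, q = 0.00326 in the authors' deposited table). The gene total was among the steadiest of the 50, at 283.2, 277.0 and 285.4 CPM in WT and 277.1, 283.6 and 276.8 CPM in KO (log2 fold change -0.01, SE 0.043, adjusted p = 0.991). The listed form leaves out a 50-base exon (chr11:50385141-50385190) that 6 of 18 annotated forms hold. In the principal form, ENSMUST00000109142, called the usual form below, that exon ends in the stop codon. Which form is most used in this tissue was not tested. In the listed form reading goes on into the next exon for 119 bases, stop included, which gives 472 codons in place of 449. The listed form also starts further downstream than the principal form (position 50377769 against 50376990). It has 13 exons against 15, so the exon left out is not its only difference. The exon left out is in capitals in the first sequence, and the first 30 bases read in its place are in capitals in the second.
Hnrnph1 usual form: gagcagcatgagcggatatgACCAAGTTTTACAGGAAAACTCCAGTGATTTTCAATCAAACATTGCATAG
Hnrnph1 listed form: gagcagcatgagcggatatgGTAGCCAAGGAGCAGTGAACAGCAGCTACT

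Rbfox2 encodes a protein that binds the motif UGCAUG beside many neuronal and muscle exons. Its listed form, ENSMUST00000227314 (chr15:77083489-77153556, minus strand, protein coding), was at 0.352, 3.62 and 0.236 FPKM in WT replicates 1 to 3 and was listed at 0 in all 3 libraries labelled KO (q = 2.02e-06 in the authors' deposited table). WT replicate 2 stood far above the other two. The gene total was at 295.6, 305.6 and 309.5 CPM in WT and at 275.7, 295.3 and 304.4 CPM in KO, with overlapping groups (log2 fold change -0.06, SE 0.051, adjusted p = 0.975). The listed form starts further downstream than the principal form, ENSMUST00000171751 (position 77153556 against 77306928). It has 378 codons against 449, so the exon described next is not its only difference. It holds a 43-base exon (chr15:77091812-77091854, in 2 of 15 annotated forms) where the principal form holds a 40-base exon (chr15:77094451-77094490, in 4 of 15). Exons of these sizes are known in the RBFOX genes as a muscle-type and a brain-type exon that replace each other. They are in capitals here between the same neighbouring exons.
Rbfox2 listed form: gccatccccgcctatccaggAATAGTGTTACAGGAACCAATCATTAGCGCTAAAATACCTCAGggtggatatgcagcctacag
Rbfox2 principal form: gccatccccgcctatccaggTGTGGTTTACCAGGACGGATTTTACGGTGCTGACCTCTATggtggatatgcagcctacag

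Mbnl1 encodes a zinc-finger protein that switches exons from fetal to adult use. Its listed form, ENSMUST00000192807 (chr3:60473079-60628200, plus strand, protein coding), was at 0.614, 1.23 and 0.74 FPKM in WT replicates 1 to 3 and was listed at 0 in all 3 libraries labelled KO (q = 9.97e-12 in the authors' deposited table). The gene total was at 107.3, 99.1 and 102.0 CPM in WT and at 105.9, 94.7 and 93.8 CPM in KO, with overlapping groups (log2 fold change -0.07, SE 0.062, adjusted p = 0.975). The listed form lacks the start codon of the principal form, ENSMUST00000099087, and is annotated with 289 codons in place of 381. The first coding bases of both forms are shown with the start codon in capitals, at chr3:60595696-60595698 in the listed form and at chr3:60529631-60529633 in the principal form.
Mbnl1 listed form: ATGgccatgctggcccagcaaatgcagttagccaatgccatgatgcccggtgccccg
Mbnl1 principal form: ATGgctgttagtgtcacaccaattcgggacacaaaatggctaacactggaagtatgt

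**Figure D2:**
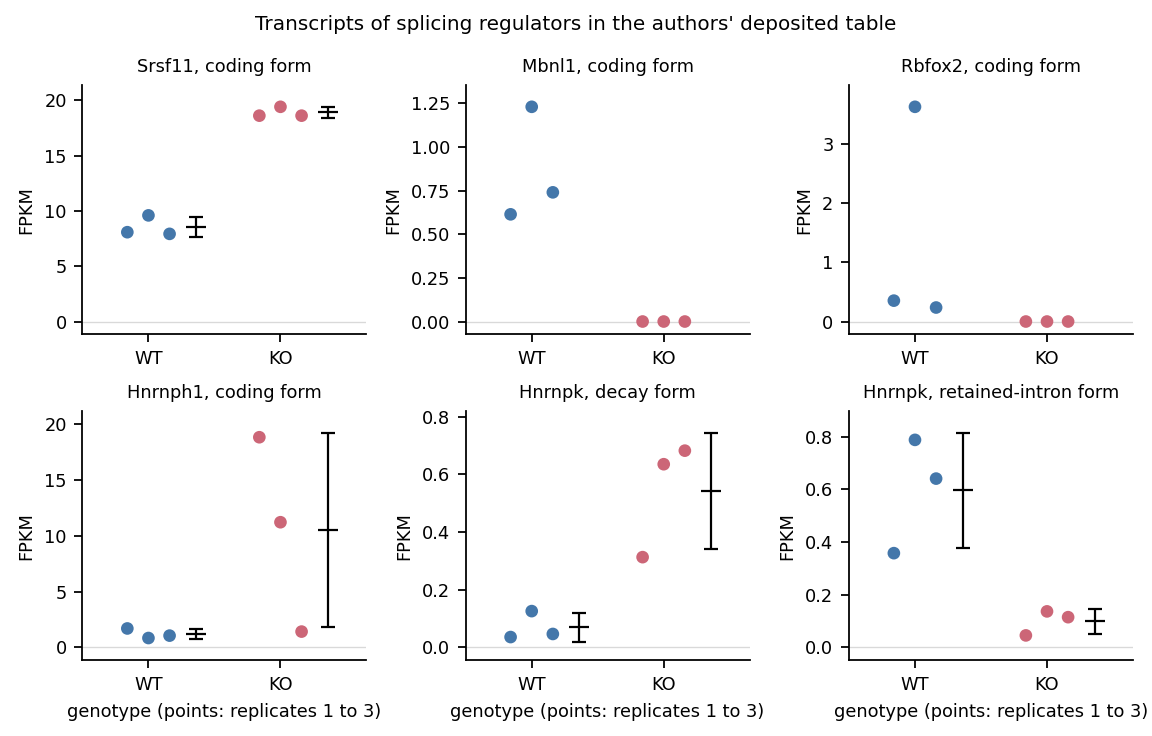
FPKM of the 6 listed transcripts in the 6 libraries, from the authors' deposited table, with WT replicates 1 to 3 on the left and KO replicates 1 to 3 on the right of each panel. Black marks are group means with SD, left out where a group is listed at 0. Srsf11 separates tightly (7.92 to 9.59 against 18.6 to 19.4 FPKM), while Hnrnph1 KO replicate 3 (1.42 FPKM) lies among the WT libraries.

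Among the SR proteins, 8 of 10 genes had a log2 fold change above 0 and 2 below, with a median of 0.027 and a range of -0.02 to 0.10. With upper-quartile scaling, without WT replicate 2 or without KO replicate 2 the split was 5 and 5. Srsf3, which carries mRNA from the nucleus as well as acting in splicing, had the smallest unadjusted p of all 50 genes. It was at 131.0, 129.9 and 133.5 CPM in WT replicates 1 to 3, against 140.0, 146.0 and 137.5 CPM in KO replicates 1 to 3. Every library labelled KO was above every one labelled WT, by a log2 fold change of 0.10 (SE 0.047, unadjusted p = 0.0554, adjusted p = 0.93). Srsf3 (chromosome 17, 29032628 to 29043373) has 4 near-identical copies elsewhere in the genome, so some of its reads could have been shared with them. A copy here is another gene with at least 95% identity over at least 150 bases, a match that need not span the whole gene.

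Srsf5 had the highest level per length of all 50 genes, with 74.0 CPM per kb of annotated exon. It stood at 300.7, 277.6 and 289.5 CPM in WT and at 310.8, 310.9 and 281.7 CPM in KO, which overlapped (log2 fold change 0.06, SE 0.056, adjusted p = 0.975). The other SR genes, apart from Srsf11 described above, had log2 fold changes of -0.02 (Srsf2) to 0.09 (Srsf9). Srsf1, the best known of the family, and Srsf10 were both at 0.05, and Srsf4, Srsf6 and Srsf7 lay within 0.01 of 0. Their groups overlapped in every case.

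Among the hnRNP genes, 14 of 17 had a log2 fold change above 0 and 3 below, with a median of 0.044. Without Hnrnpa3 it was 13 of 16 with the same median, and none of them passed the test. Hnrnpa1, a repressor of many exons and the gene with the highest level per length in the family (72.7 CPM per kb), was at 211.8, 217.1 and 233.6 CPM in WT replicates 1 to 3, against 234.5, 235.8 and 242.1 CPM in KO replicates 1 to 3. The groups did not overlap, though the gap between WT replicate 3 and KO replicate 1 was under 1 CPM (log2 fold change 0.10, SE 0.051, unadjusted p = 0.0695, adjusted p = 0.933). Hnrnpa1 (chromosome 15, 103240432 to 103246692) has 10 near-identical copies. Hnrnpl, which binds CA repeats, was at 168.9, 171.2 and 176.6 CPM in WT and at 185.7, 181.2 and 177.1 CPM in KO, again without overlap (log2 fold change 0.07, SE 0.046, adjusted p = 0.956).

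Hnrnpd, also called AUF1, which binds AU-rich elements of mRNA, was the remaining hnRNP gene without overlap and was picked out after its values were seen. It had 151.4, 154.9 and 156.3 CPM in WT and 160.2, 158.5 and 160.7 CPM in KO (log2 fold change 0.05, SE 0.044, adjusted p = 0.975). Hnrnph3, a relative of Hnrnph1, was at 40.9, 40.3 and 43.4 CPM in WT and at 45.4, 45.1 and 41.4 CPM in KO, which overlapped (log2 fold change 0.08, SE 0.065, adjusted p = 0.973). Exons of Hnrnpl, Hnrnpd and Hnrnph3 overlap those of a gene on the opposite strand (Gm44702, Gm17092 and Rufy2), and no source used here says whether the counting used strand.

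Hnrnpab, which takes part in mRNA transport in neurons, had the lowest log2 fold change of the 50 genes, at -0.16 (SE 0.123, adjusted p = 0.969). It was at 127.0, 121.2 and 109.1 CPM in WT replicates 1 to 3, against 83.6, 117.4 and 118.8 CPM in KO replicates 1 to 3. KO replicate 1 alone was low, and the other two KO libraries lay within the WT range. Without KO replicate 1 the log2 fold change was -0.01. The remaining hnRNP genes other than Hnrnpa3, Hnrnph1 and Hnrnpk were between -0.02 (Hnrnpul2) and 0.06 (Hnrnpa0 and Hnrnpdl). Hnrnpu, a nuclear matrix protein that binds RNA and chromatin, had the highest level per library, at 642.8 to 675.5 CPM, with a log2 fold change of 0.00 (SE 0.044).

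Hnrnpa3, a close relative of Hnrnpa1 that has been tied to RNA transport, did not behave like the other genes and was picked out after its values were seen. It was at 16.1, 178.5 and 20.5 CPM in WT replicates 1 to 3, against 13.7, 178.9 and 176.5 CPM in KO replicates 1 to 3. Both genotypes thus held low and high libraries with nothing between, and the highest library was 13.0 times the lowest. In the other 49 genes that ratio was at most 1.52. The log2 fold change of 0.78 had an SE of 0.99 (adjusted p = 0.975). It ranged from 0.30 to 2.75 as single libraries were left out, and was 2.75 without WT replicate 2 (unadjusted p = 0.0134), so it rests on which libraries were high.

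Hnrnpa3 (chromosome 2, 75659261 to 75669407) has 36 near-identical copies (at least 95% identity over 150 bases), of which 12, most of them processed pseudogenes, had a mean of at least 1 CPM. Their own levels were steady, with a highest library 1.12 to 1.4 times the lowest. The 36 copies summed to 132.8 to 151.1 CPM per library. With Hnrnpa3 added to its copies, a sum chosen after the data were seen, the libraries held 162.9, 314.5 and 153.2 CPM in WT and 164.9, 323.8 and 327.7 CPM in KO. Of the 10116 genes that averaged 10 CPM or more, 6 were at least 5-fold apart within both genotypes. Besides Hnrnpa3 these were Gm45062, Gm49450, Gm49510, Spp1 and Ttr.

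**Figure D3:**
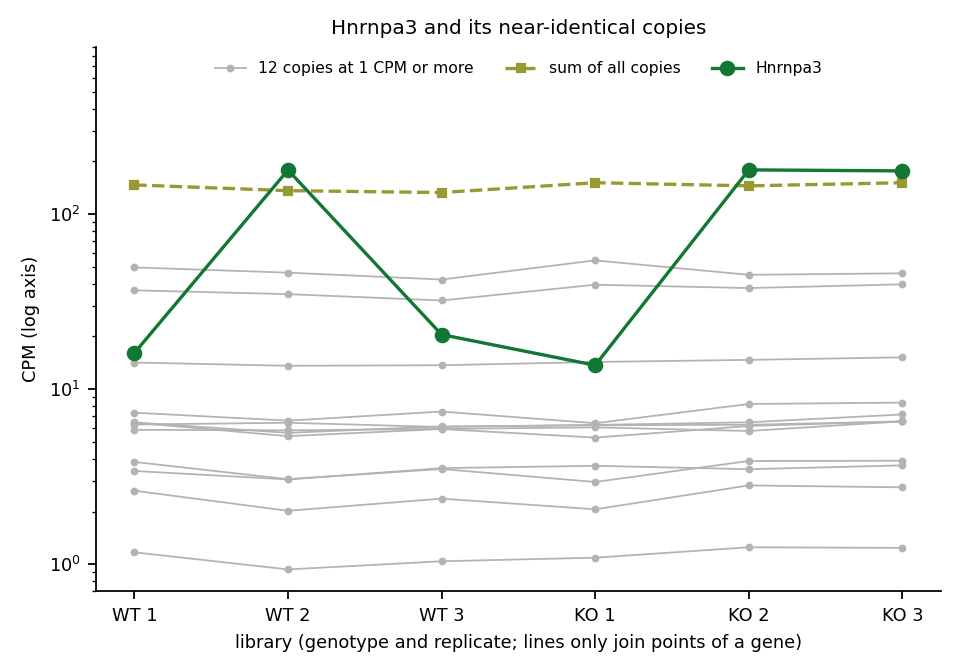
CPM (log axis) of Hnrnpa3, of its 12 near-identical copies with a mean of at least 1 CPM (grey) and of the sum over all 36 copies, in the 6 libraries. Hnrnpa3 lies at 13.7 to 20.5 CPM in WT replicates 1 and 3 and KO replicate 1 and at 176.5 to 178.9 CPM in the other libraries, while the copies stay level.

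In the RBFOX and NOVA family 4 of 5 genes had a log2 fold change below 0, with a median of -0.05 and a range of -0.06 to 0.00. Rbfox1, a neuronal splicing factor, had the highest level per length in the family (46.4 CPM per kb), with 213.4, 212.0 and 194.9 CPM in WT replicates 1 to 3 and 193.6, 203.1 and 206.8 CPM in KO replicates 1 to 3. The groups overlapped (log2 fold change -0.04, SE 0.053, adjusted p = 0.975). Rbfox3, known as the neuronal marker NeuN, was at 249.2 to 260.9 CPM in all 6 libraries (log2 fold change 0.00, SE 0.043). Nova1 and Nova2, which bind YCAY clusters in neuronal transcripts, were both at -0.05 (SE 0.079 and 0.068).

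The PTBP genes had log2 fold changes of -0.09, 0.03 and -0.06 for Ptbp1, Ptbp2 and Ptbp3. Ptbp1, the repressor of neuronal exons that neurons largely switch off, was at 37.8, 33.2 and 41.6 CPM in WT and at 35.6, 33.0 and 36.9 CPM in KO, which overlapped (SE 0.090, adjusted p = 0.975). Ptbp2, the form that neurons use in its place, stood higher per length (11.5 against 7.67 CPM per kb), with 111.3, 104.7 and 99.1 CPM in WT and 101.6, 113.0 and 106.0 CPM in KO (SE 0.062, adjusted p = 0.987). Exons of Ptbp1 overlap those of E130317F20Rik, Gm17134 and Plppr3 on the opposite strand, and it has 1 copy, so some of its reads could be shared. The family median was -0.06, and 0.06 without KO replicate 1.

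Of the CELF and MBNL genes, 7 of 8 had a log2 fold change below 0, with a median of -0.05 and a range of -0.07 to 0.05, and none passed the test. CELF and MBNL proteins act against each other on many developmental exons. Celf4, found mainly in excitatory neurons, had the highest level per length (47.3 CPM per kb), with 434.6, 379.5 and 424.1 CPM in WT replicates 1 to 3 and 362.9, 445.2 and 391.6 CPM in KO replicates 1 to 3. KO replicate 1 was lowest and KO replicate 2 highest, so the groups overlapped (log2 fold change -0.05, SE 0.08, adjusted p = 0.979). Celf1, Celf2, Celf3 and Celf5 were likewise lowest in KO replicate 1, as was Celf6, which shared its rounded low of 10.5 CPM with WT replicate 1. The log2 fold changes of the CELF genes were -0.07 to 0.05.

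The lean of the CELF genes rested on KO replicate 1, while that of Mbnl1 did not. Without KO replicate 1, 5 of the 8 CELF and MBNL genes had a log2 fold change above 0 and their median was 0.01. Mbnl1 was then at -0.13, against -0.07 with all libraries. The RBFOX and NOVA median was -0.01 without KO replicate 1, but Nova1 was at -0.15, against -0.05 with all libraries. KO replicate 1 was the lowest library for 14 of all 50 genes, among them 6 of 8 CELF and MBNL genes and 3 of 5 RBFOX and NOVA genes. It was also the highest library for 9 genes, 6 of them hnRNP genes, while WT replicate 2 was lowest for 11 and KO replicate 2 highest for 17. In the same library the 7 mature oligodendrocyte markers summed to 6442.9 CPM, against 3774.6 to 4877.2 CPM in the other 5, and the 5 excitatory neuron markers to 4079.2 CPM, against 4359.0 to 4800.8 CPM. The excitatory markers did not move together there, since Neurod2 (64.4 CPM) and Neurod6 (106.0 CPM), transcription factors of excitatory neurons, were above all 3 WT libraries (58.0 to 62.6 and 94.6 to 101.0 CPM). The 5 neuronal markers summed to 5578.2 CPM, within the 5384.3 to 5699.6 CPM of the WT libraries. In bulk tissue, fewer cells of a type and less RNA per cell cannot be told apart. The part of these markers in the levels of the splicing regulators was not tested.

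All 3 KHDRBS genes, which encode STAR-family proteins that bind UAAA-type motifs, had log2 fold changes above 0 (0.07, 0.24 and 0.02). Khdrbs1, also called Sam68, was at 106.4, 101.9 and 103.2 CPM in WT replicates 1 to 3, against 109.9, 109.5 and 107.6 CPM in KO replicates 1 to 3, without overlap (SE 0.046, adjusted p = 0.966). Khdrbs2, or SLM1, was the scarcest of the 50 genes per length (0.915 CPM per kb), with 7.75, 10.4 and 7.71 CPM in WT and 11.5, 8.93 and 10.3 CPM in KO. Its groups overlapped, and its SE of 0.156 was the largest apart from that of Hnrnpa3 (adjusted p = 0.961). Khdrbs3, or SLM2, which sets neurexin splicing, was the highest of the 3 per length (37.3 CPM per kb), at 138.1, 134.4 and 134.2 CPM in WT and 138.9, 132.1 and 141.3 CPM in KO (SE 0.048, adjusted p = 0.986).

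Of the ELAVL genes, which bind U-rich and AU-rich sites in introns and 3' ends, Elavl2 had the largest log2 fold change at 0.12 (SE 0.062, unadjusted p = 0.0828, adjusted p = 0.944). It was at 90.3, 82.8 and 78.3 CPM in WT replicates 1 to 3, against 88.0, 92.9 and 92.5 CPM in KO replicates 1 to 3. WT replicate 1 lay within the KO range. Elavl3, the most abundant of the neuronal members per length (29.2 CPM per kb), was level at 195.6, 206.0 and 196.2 CPM in WT and 197.6, 204.3 and 205.8 CPM in KO (log2 fold change 0.02, SE 0.046, adjusted p = 0.983). The broadly expressed Elavl1, or HuR, was at -0.01 and Elavl4 at 0.06.

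**Figure D4:**
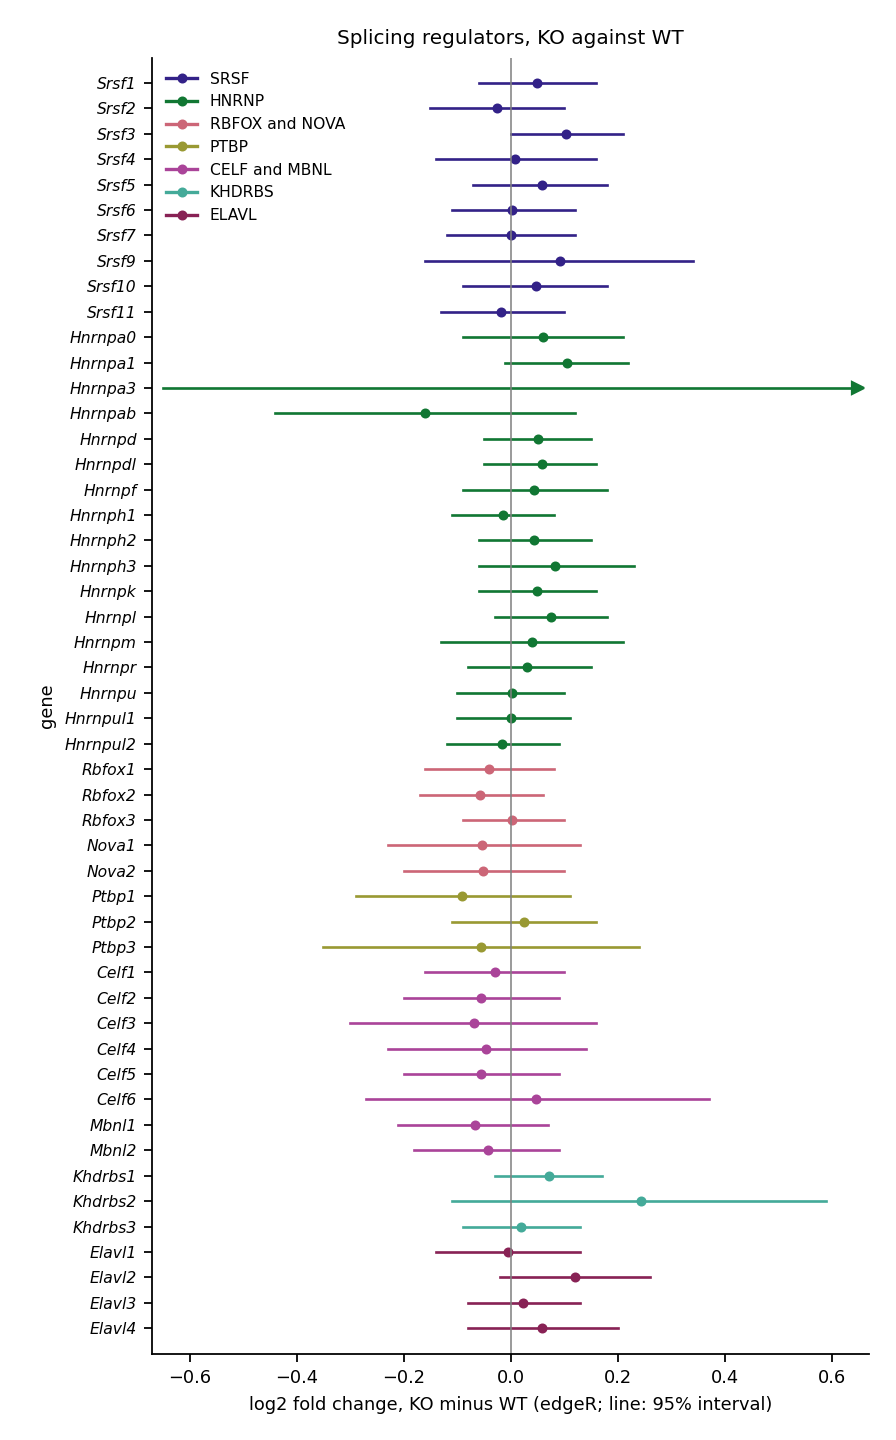
Log2 fold change (KO minus WT) of the 50 splicing regulators from edgeR, coloured by family, with the 95% confidence interval as a line. The arrow marks Hnrnpa3 (0.78), which lies beyond the axis, and 44 genes lie within 0.1 of 0.

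Per length of annotated exon, the 50 genes ran from 0.915 CPM per kb (Khdrbs2) to 74.0 CPM per kb (Srsf5). Of the 49 pairs of neighbours in that order, 42 overlapped in the range of their 6 libraries, so the order among them is not settled. Clear steps lay below Hnrnpa1 (72.7 against 56.9 CPM per kb for Hnrnpu), below Hnrnpu (48.0 for Hnrnph1), between Srsf2 and Hnrnpl (35.0 and 29.7), between Nova2 and Ptbp1 (10.3 and 7.67), between Elavl1 and Mbnl1 (6.78 and 5.37), between Hnrnpr and Celf6 (4.86 and 3.41), and between Ptbp3 and Khdrbs2 (3.35 and 0.915). The length counts every annotated exon of a gene, also those of rare forms, so genes with long rare exons are placed lower.

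**Figure D5:**
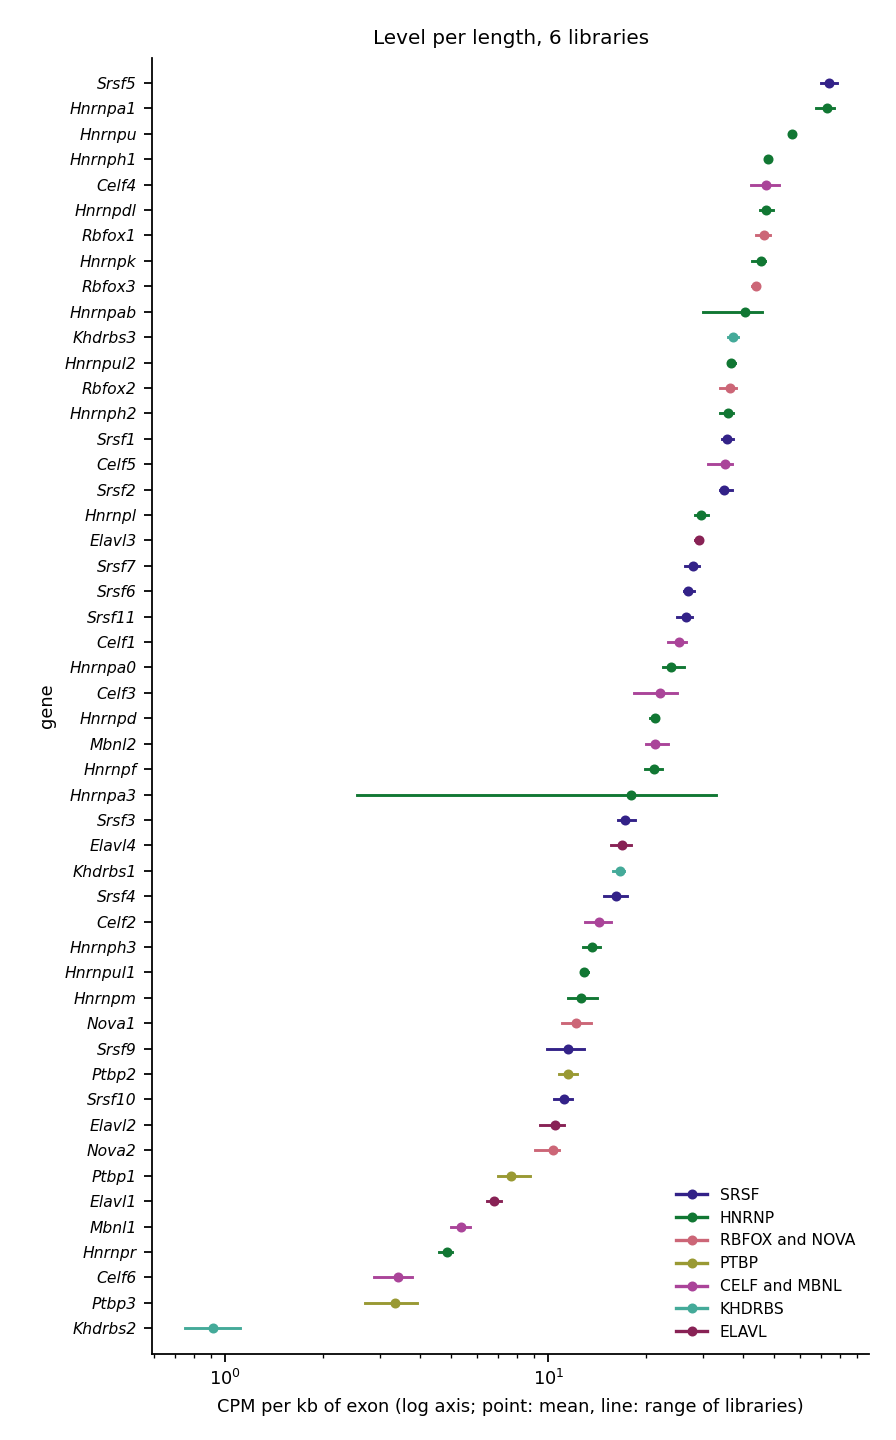
Level of the 50 splicing regulators in CPM per kb of annotated exon (log axis), in order, with the mean of the 6 libraries as a point and their range as a line, coloured by family. Most neighbours overlap, Hnrnpa3 has by far the longest line, and Khdrbs2 (0.915) stands apart at the bottom.

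No gene of 5 lists of the wider splicing and decay machinery passed the test. Of 28 SR kinases and SR-related genes 12 had a log2 fold change above 0 (median -0.01). Rsrc1 (0.17, SE 0.075, adjusted p = 0.93) and Srek1 (-0.09, SE 0.058, adjusted p = 0.959) had the smallest p. Of 19 other hnRNP and hnRNP-like genes 13 were above 0 (median 0.02), led by the poly(C)-binding gene Pcbp1 (0.13, SE 0.056, adjusted p = 0.93) and by Hnrnpa2b1 (0.09, SE 0.047, adjusted p = 0.956). Of 17 other tissue splicing regulators tested 6 were above 0 (median -0.03), and Rbm38 (-0.48, SE 0.17, adjusted p = 0.881) and Rbm24 (-0.25, SE 0.112, adjusted p = 0.93) had the smallest p.

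Of 52 core spliceosome genes 38 were above 0, with a median of 0.03. The Sm protein gene Snrpd2 (0.35, SE 0.122, adjusted p = 0.881) and the 3' splice site factor U2af1 (0.20, SE 0.084, adjusted p = 0.93) had the smallest p there. Of 15 genes for nonsense-mediated decay and the exon junction complex 5 were above 0 (median -0.02), with Upf2 at 0.10 (SE 0.053, adjusted p = 0.956). These lists held 131 tested genes, of which 7 (5.34%) had a transcript in the authors' deposited table, against 2.32% of all tested genes. Per annotated transcript the shares were close, with 0.639% of 1096 listed against 0.548% of 95361. The 7 listed transcripts were of Srek1, Srrm3, Syncrip, U2af2, Rbm4b, Rsrc1 and Rsrc2. The table had 5 of these transcripts as higher in the libraries labelled KO and those of Srek1 and Rsrc2 as lower. Of all the decay forms in the authors' deposited table, 31 were higher and 24 lower. In that table the decay forms of Srrm3, U2af2 and Rbm4b were higher in the libraries labelled KO. That of Srrm3 was at 0.966 to 1.5 FPKM in KO against 0.375 to 0.442 FPKM in WT. The U2af2 form was at 1.52, 0.175 and 0.234 FPKM in KO replicates 1 to 3, so KO replicate 1 stood far above the others. The Rbm4b form was scarce, at 0.0778 to 0.183 FPKM in KO. Both of these were listed at 0 in WT.

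Of 8 nuclear noncoding RNAs tested 6 were above 0. Malat1, an RNA of nuclear speckles where SR proteins gather, was at 490.9, 507.7 and 654.9 CPM in WT replicates 1 to 3, against 768.8, 1198.4 and 916.6 CPM in KO replicates 1 to 3. The groups did not overlap (log2 fold change 0.80, SE 0.157), but it did not pass the test over all genes (unadjusted p = 0.0006, adjusted p = 0.881). Neat1, the RNA of paraspeckles, overlapped between the groups (0.20, SE 0.141, adjusted p = 0.966).

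Cell type markers were read to check the tissue, and every marker list was detected in all 6 libraries. The 5 neuronal markers had a median log2 fold change of 0.00 (Tubb3 0.06, Syt1 -0.03), 5 excitatory markers of -0.05 (Neurod2 0.16, Neurod6 0.13) and 5 inhibitory ones of 0.04 (Slc32a1 0.13, Pvalb 0.24). Above 0 were 4 neuronal, 2 excitatory and 3 inhibitory markers, and below 0 were 1, 3 and 2. The excitatory markers named, those with the smallest p, thus went against the median of their list. All 7 mature oligodendrocyte markers were above 0 (median 0.35, Mobp 0.47, Ermn 0.46), while 3 precursor markers were at -0.04 (Olig1 0.19, Cspg4 -0.09), 4 astrocyte markers at -0.06 (Aqp4 -0.19, Slc1a3 -0.07) and 4 microglia markers at 0.04 (C1qa 0.20, Cx3cr1 0.10). Of the precursor markers 1 was above 0 and 2 below, all 4 astrocyte markers were below, and of the microglia markers 2 were above and 2 below. All 5 endothelial, 4 mural, 6 meningeal and 5 striatal markers were below 0, with medians of -0.38 (Tek and Kdr -0.48), -0.34 (Acta2 -1.12, Rgs5 -0.30), -0.99 (Ogn -1.24, Igf2 -1.11) and -0.58 (Penk -0.58, Pde10a -0.76). Striatal markers summed to 130.0 to 157.6 CPM in 5 libraries and to 275.9 CPM in WT replicate 2, without which their median was 0.06. Leaving out KO replicate 1 gave medians of 0.19 for oligodendrocyte and 0.01 for excitatory markers. The precursor median was 0.04 without KO replicate 3 and the microglia median -0.04 without KO replicate 2. With each library left out in turn the astrocyte median was -0.12 to -0.01 and the inhibitory median 0.00 to 0.09. None of these genes passed edgeR's test, while DESeq2 called Ermn, Acta2, Ogn and Penk among those named. The part of these marker differences in the levels of the splicing regulators was not tested.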

How the data were processed

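Polyadenylated RNA from 6 libraries was made into strand-marking paired-end libraries with dUTP, per the labels' protocols. The submitters' processing notes name cutadapt 1.9, HISAT2 2.2.1, StringTie 2.1.6, DESeq2 and edgeR. No source used here names the genome build, how reads were counted or whether strand was used. Whole-number counts per gene, deposited by the authors with no normalization, entered the tests unchanged. A second deposited table holds transcripts selected by the authors, with FPKM per library, a log2 ratio and p-values with q-values. That table's sheet names ran against the direction written beside each transcript, and the written direction matched the group means for all 537. Of these, 530 were found in GENCODE M21 (GRCm38), all with the same start and end, so positions are in GRCm38. Of 55401 gene rows 55141 had a symbol there, and rows without one held 0.00799% of the counts.

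Counts were tested in R 4.3.3 with edgeR 4.0.16 (filterByExpr, TMM factors of 0.993 to 1.01, quasi-likelihood F-test, no covariate), with Benjamini-Hochberg adjustment over all 20587 tested genes and a threshold of 0.05. limma 3.58.1 and DESeq2 1.42.0, other scalings, other filters, the replicate block and each library left out in turn were alternatives. The fits were tested on simulated data. A copy is another gene with a match of 95% identity over 150 bases or longer, and 13 of the 50 genes had some. Exons of 19 overlapped a gene on the opposite strand and of 5 one on the same strand, so reads could be shared. In principle 3 libraries against 3 cannot go below p = 0.1 in an exact permutation test, so none was run.

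The 50 genes, the lists and the tests were chosen with earlier results of these data known. Named in full are, per family, the gene with the smallest unadjusted p and the one with the highest level per length, then the 8 smallest p over all families, genes with a listed transcript and genes called by another tool (0 genes), and in each other list the 2 genes with the smallest p at a mean of at least 1 CPM. A gene named by this rule is not reported here. Sequences come from GENCODE M21 transcripts and RefSeq promoters.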

Additional observations from a re-analysis of the deposited data

How the results depend on the processing

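No splicing regulator was called under any of the 15 settings, nor at an adjusted p under 0.1, and the lowest adjusted p over the settings was 0.67. Over all genes edgeR called 0, DESeq2 called 34, and leaving out single libraries gave 0 to 2. The replicate numbers did not pair the libraries (correlations of same-numbered deviations -0.042, 0.040 and 0.026). With the replicate block 0 genes and 0 of the 50 were called, with 916 genes at an unadjusted p under 0.05 against 1083. The median of the 50 ranged from 0.001 to 0.024 and the number above 0 from 25 to 35. Without Hnrnpa3, a setting chosen after seeing the data, they were 0.008 and 30.

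Of 701 log2 fold changes under the settings, 640 kept their direction and 61, in 22 genes, turned. The largest value among those 22 genes was 0.07 in size, so all lie near 0. With upper-quartile factors Srsf4 was at -0.00144, Srsf6 at -0.00691, Srsf7 at -0.00939, Hnrnpu at -0.00772, Hnrnpul1 at -0.00825 and Rbfox3 at -0.00593. With RLE factors Srsf7 was at -0.00249, Hnrnpu at -0.000733 and Hnrnpul1 at -0.00134. With a mean of at least 1 CPM Srsf6 was at -0.000557, Srsf7 at -0.00322, Hnrnpu at -0.00141 and Hnrnpul1 at -0.00207. With DESeq2 Srsf7 was at -0.00255, Hnrnpu at -0.000729 and Hnrnpul1 at -0.00137. Without a filter Srsf7 was at -0.000512, with limma voom at -7.61e-05, and with library totals Elavl1 was at 0.000676.

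Leaving out single libraries gave ranges of -0.0569 to 0.00869 for Srsf2, -0.0502 to 0.0611 for Srsf4, -0.032 to 0.0234 for Srsf6, -0.0434 to 0.0267 for Srsf7 and -0.0541 to 0.0175 for Srsf11. They were -0.0395 to 0.108 for Hnrnpm, -0.00268 to 0.0488 for Hnrnpr, -0.0133 to 0.017 for Hnrnpu and -0.0198 to 0.0173 for Hnrnpul1. The RBFOX, NOVA and PTBP ranges were -0.0134 to 0.0228 for Rbfox3, -0.148 to 0.00436 for Nova1, -0.103 to 0.0189 for Nova2, -0.0172 to 0.0651 for Ptbp2 and -0.203 to 0.0648 for Ptbp3. The CELF and MBNL ranges were -0.0631 to 0.0168 for Celf1, -0.155 to 0.0342 for Celf3, -0.13 to 0.0191 for Celf4, -0.109 to 0.0113 for Celf5, -0.0527 to 0.162 for Celf6 and -0.0975 to 0.012 for Mbnl2. Khdrbs3 gave -0.00382 to 0.0477 and Elavl1 -0.0447 to 0.0239. The cause was not tested. The FPKM differences of the 6 listed transcripts kept their direction with a pseudocount of 0.1 in place of 1 and with each library left out. The authors had listed these transcripts for a difference, so the kept direction is no check of it. For Mbnl1 and Rbfox2, at 0 in every library labelled KO, the direction could not turn. The pseudocount of 0.1 moved the size for 4 of the 6 transcripts, to -3.213 for Mbnl1, -3.046 for Rbfox2 and 1.905 and -1.781 for the Hnrnpk forms. These sizes are another measure than the authors' log2 ratios, which were 2.96 and -2.59 for the Hnrnpk forms. For transcripts this scarce the size thus depends on the pseudocount.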
